A study of Mus musculus with 12 samples.

Results

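The genes described here encode the proteasome in mouse liver, and they were taken as every row of the gene count tables whose symbol starts with Psm, a letter from a to g and a digit. This gave 50 of the 24062 rows. They comprise 19 rows of the core particle, 17 of the regulatory particle, 13 of assembly chaperones, activators and an inhibitor, and 1 row matched by its symbol only. RNA-seq libraries of liver came from 12 female C57BL/6J mice, for which the labels name no genetic alteration. The mice were 6 weeks old on arrival and acclimated for 2 weeks, and all of them ate the control diet for some days before the start. The control group (n = 6, replicates 1 to 6) stayed on that diet. The BIBB-515 group (n = 6, replicates 6 to 11) received a matched diet with BIBB-515 at 55 mg/kg body weight for 10 days. BIBB-515 inhibits lanosterol synthase, an enzyme of cholesterol synthesis, and the comparison asks how liver gene expression differs when this enzyme is inhibited by diet.

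The proteasome degrades proteins that carry chains of ubiquitin. Its core particle is a barrel of stacked rings of alpha subunits, which gate the entry, and beta subunits, of which Psmb5, Psmb6 and Psmb7 cut the protein chain. The regulatory particle caps the barrel: its base holds a ring of ATPases that unfold the substrate, and its lid and other non-ATPase subunits bind and remove ubiquitin. In cells exposed to interferon, Psmb8, Psmb9 and Psmb10 take the places of the standard catalytic subunits to form the immunoproteasome. The transcription factor Nfe2l1 is known to raise proteasome gene transcription when proteasome activity is short, and in liver Nfe2l1 has also been described as a sensor of cholesterol in the endoplasmic reticulum.

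Between 22764819 and 27914647 reads per control mouse and between 24223939 and 31058370 per BIBB-515 mouse were counted on genes. Libraries of the same diet differed from each other by more than counting noise (chi-square per degree of freedom of at least 13.4). Each mouse was used as its own replicate. The paper states that several mice shared a cage, and the labels do not name the cages. All 8 hepatocyte markers examined passed the filter, with a summed level of 165500 to 188700 CPM in the control mice and 127100 to 141500 CPM in the BIBB-515 mice. Of these markers 4 (Alb, Ttr, Fgb and Trf) were called lower and 0 higher, against 6.48% and 7.18% of all tested genes. Levels in CPM are read counts relative to library size, corrected by TMM factors. The 20 most highly counted genes held 27.7% to 29.8% of the counts in control mice and 23.6% to 25.2% in BIBB-515 mice. The part of these shifts in the proteasome values was not tested. In whole liver, fewer cells of a type and less RNA per cell cannot be told apart.

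Most proteasome genes had a slightly higher estimate in the BIBB-515 mice, and none was called lower. Of the 50 rows, 47 reached 1 CPM in at least 2 mice and were tested among 12481 genes. With edgeR's quasi-likelihood test and Benjamini-Hochberg adjustment (FDR) over all tested genes, 9 of the 47 rose at an FDR under 0.05, or 19.1%, against 7.18% of all tested genes called higher. None of the 47 was called lower, against 6.48% of all tested genes, and the other 38 did not pass. The 9 were Psma7, Psmb4 and Psmb5 of the core, Psmd2, Psmd3, Psmd11 and Psmd13 of the regulatory particle, the assembly chaperone Psmd5 and the activator subunit Psme1. At an unadjusted p under 0.05, 21 of the 47 were higher and 0 lower, against 14.3% and 15.5% of all tested genes. Shares among genes of similar exonic length are given below.

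The differences were small. The median log2 fold change of the tested proteasome genes was 0.16, or 11.6% in level, with a range from -0.043 to 0.46, while the median of all tested genes was -0.014. The fold change lay above 0 for 44 of the 47 genes, against 47.1% of all tested genes. The lowest BIBB-515 mouse was above the highest control mouse for 5 genes (Psma7, Psmb5, Psmd11, Psmd13 and Psme1), against 4.35% of all tested genes, and the reverse held for 0, against 2.72%. Without scaling factors the median of all genes moved to 0.040 and that of the proteasome genes to 0.21. In that scaling, calls over all genes split into 1496 higher and 490 lower, against 896 and 809 with TMM, and 17 proteasome genes were called higher and 0 lower. The genes of a single complex are read in the same libraries, so their fold changes are not independent of each other.

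**Figure D1:**
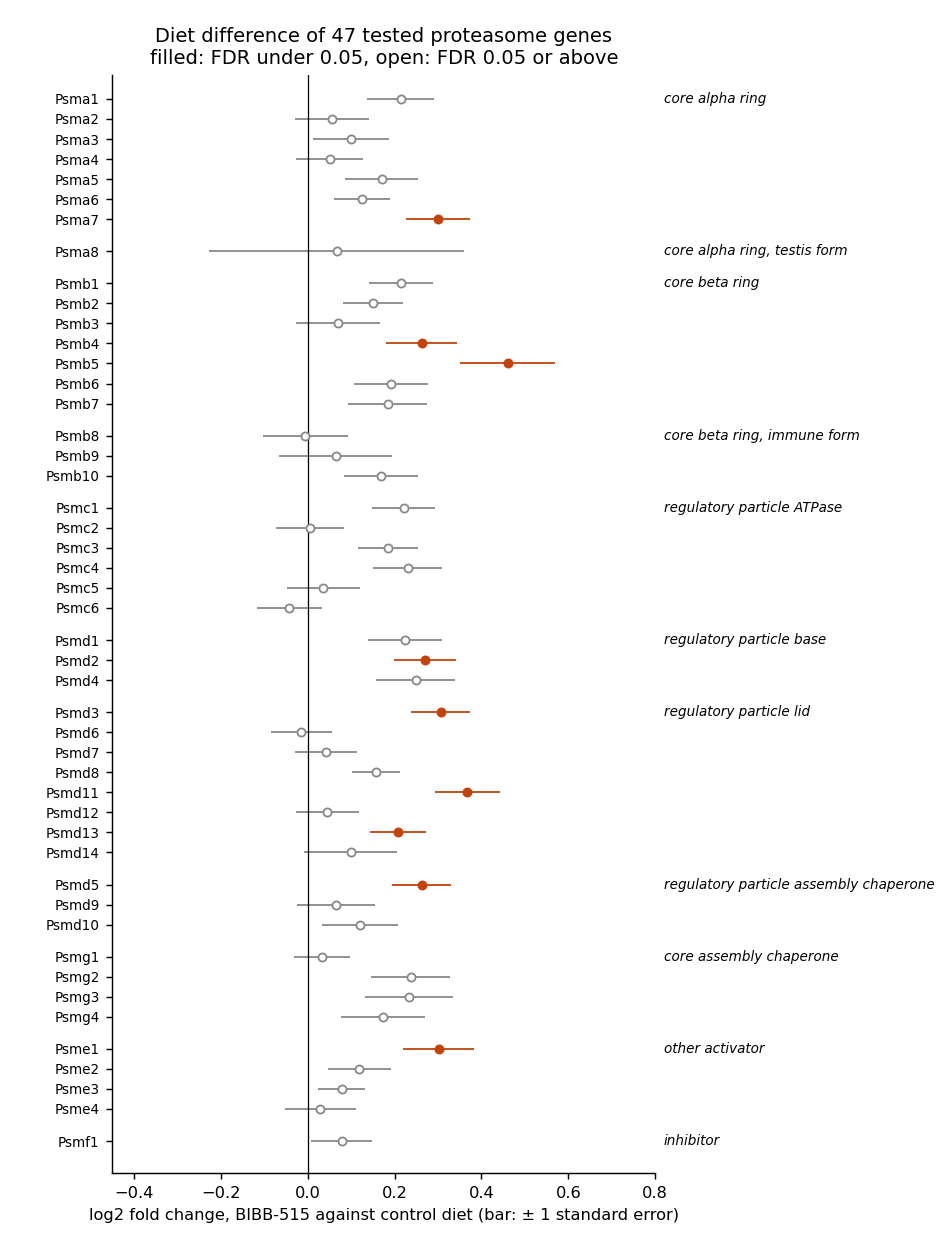
Log2 fold change with BIBB-515 against control diet for each of the 47 tested proteasome genes, grouped by role, with bars of 1 standard error of the edgeR fit (6 mice per diet). Filled points mark the 9 genes past an FDR of 0.05, and 44 of the 47 points lie above 0.

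Proteasome transcripts are short, and the median diet difference varied with exonic length. The exonic length of the tested proteasome genes ran from 554 to 6442 bases with a median of 1344, against 2891 for all tested genes. Among the other tested genes, the median log2 fold change was 0.073 up to 700 bases, 0.063 from 700 to 1000, 0.042 from 1000 to 1600, 0.012 from 1600 to 2500, -0.015 from 2500 to 4000 and -0.070 above. The 21 proteasome genes of 1000 to 1600 bases had a median of 0.17, and the 12 of 700 to 1000 bases one of 0.14. Of these 21, 2 were called higher, against 9.3% of the other genes of that length, and of these 12, 3, against 13.5%. Of the 7 from 1600 to 2500 bases, 3 were called higher, against 9.3%, and of the 5 from 2500 to 4000, 1, against 7.11%. The single proteasome genes of the shortest and longest classes were not called. For the other genes up to 700 bases, the median deviation of a library from the mean over mice ran from -0.17 in control 2 to 0.20 in BIBB-515 11. It was also 0.10 in control 4, -0.075 in BIBB-515 6 and -0.013 in BIBB-515 7, so the diets overlapped. An analysis chosen after seeing the data removed each library's trend on exonic length. It left 36 of 47 proteasome genes above 0 with a median of 0.099. In that fit 7 of them were called higher, against 7.44% of all tested genes, with Psmb4 (FDR 0.0742) and Psmd13 (FDR 0.0749) lost.

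**Figure D2:**
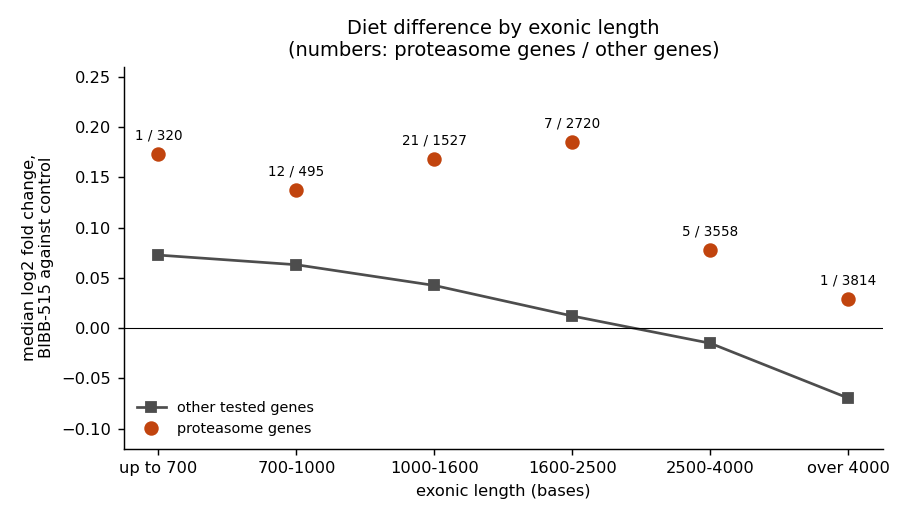
Median log2 fold change with BIBB-515 against control diet in 6 classes of exonic length, for the proteasome genes (circles) and the other tested genes (squares, joined), with the number of proteasome and other genes in each class printed above it. The other genes go from 0.073 in the shortest class to -0.070 in the longest, and the proteasome genes lie above them in each class, 2 of which hold a single proteasome gene.

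The promoters of 5 members are shown: the 4 genes of lowest p that have a RefSeq entry (Psmd11, Psmb5, Psma7 and Psmd5), and Psmb6, a catalytic partner of Psmb5 that did not pass and was chosen after its window was seen. Each is the 250 bases before the RefSeq start (GRCm38.p6, the same build as the mm10 of the count tables), written 5′ to 3′ on the gene's strand. Capitals mark a match to TGACNNNGC or TGAGNNNGC on either strand, letters close to the antioxidant response element that CNC-bZIP factors such as Nfe2l1 and Nfe2l2 are known to bind. The windows lie at chr14:54617996-54618245 (minus strand, Psmb5), chr11:70525107-70525356 (plus strand, Psmb6), chr2:180042465-180042714 (minus strand, Psma7), chr2:34870963-34871212 (minus strand, Psmd5) and chr11:80428365-80428614 (plus strand, Psmd11).
Psmb5: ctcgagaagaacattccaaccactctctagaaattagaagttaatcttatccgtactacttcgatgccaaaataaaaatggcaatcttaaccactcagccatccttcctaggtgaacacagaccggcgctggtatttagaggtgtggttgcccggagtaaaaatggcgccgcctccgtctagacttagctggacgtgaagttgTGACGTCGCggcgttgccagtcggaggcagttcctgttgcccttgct
Psmb6: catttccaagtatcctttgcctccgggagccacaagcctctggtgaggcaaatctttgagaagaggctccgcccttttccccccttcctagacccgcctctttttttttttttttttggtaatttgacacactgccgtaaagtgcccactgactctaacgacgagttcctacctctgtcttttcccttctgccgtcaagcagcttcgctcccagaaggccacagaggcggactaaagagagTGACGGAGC
Psma7: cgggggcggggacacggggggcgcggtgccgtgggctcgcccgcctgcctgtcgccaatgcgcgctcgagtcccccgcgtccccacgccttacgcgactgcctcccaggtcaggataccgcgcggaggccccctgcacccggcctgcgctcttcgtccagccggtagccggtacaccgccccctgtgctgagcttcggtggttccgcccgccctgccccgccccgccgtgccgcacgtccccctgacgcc
Psmd5: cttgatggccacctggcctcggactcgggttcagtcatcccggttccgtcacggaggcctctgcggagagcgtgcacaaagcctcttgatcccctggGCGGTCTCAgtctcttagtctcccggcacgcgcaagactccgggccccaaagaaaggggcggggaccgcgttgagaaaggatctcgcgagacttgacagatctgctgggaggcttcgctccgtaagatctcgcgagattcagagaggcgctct
Psmd11: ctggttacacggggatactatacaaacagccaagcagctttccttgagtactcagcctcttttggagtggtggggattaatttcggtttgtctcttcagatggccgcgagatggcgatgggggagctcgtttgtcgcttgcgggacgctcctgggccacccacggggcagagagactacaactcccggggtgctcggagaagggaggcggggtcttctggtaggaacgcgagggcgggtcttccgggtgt
The match of Psmb5, TGACGTCGC, lay 47 to 39 bases before the start, and that of Psmb6, TGACGGAGC, 9 to 1 bases before it. Psmd5 held GCGGTCTCA, on the reverse strand 153 to 145 bases before the start, and the Psma7 and Psmd11 windows held no match. RefSeq promoter entries matched 42 of the 50 rows, with 45 windows. TGACNNNGC occurred in 11.1% of these windows and in 10.2% of all 32851 promoters of the table, and TGAGNNNGC in 24.4% and 14.4%. Either motif was present in 2 of the 8 windows of genes past the FDR threshold and in 11 of the 34 windows of tested members that did not pass, against 23.0% of all promoters. A match of letters is a description of the window and not evidence of binding.

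In the core particle, 3 of 18 tested genes were called higher (16.7%, against 7.18% of all tested genes) and none lower. All 14 standard subunits had a fold change above 0, against 47.1% of all tested genes, with a median of 0.18. At an unadjusted p under 0.05, 7 of them were higher, against 14.3% of all tested genes. Psmb5, which carries the chymotrypsin-like activity, had the largest difference of any proteasome gene. It lies on chromosome 14 from 54614120 to 54617995. Its lowest, median and highest values were 26.7, 37.2 and 46.0 CPM in control mice and 46.0, 49.5 and 57.2 CPM in BIBB-515 mice. The groups did not overlap, although the highest control mouse (control 4) and the lowest BIBB-515 mouse (BIBB-515 7) were almost level. The mean was 37.0 ± 6.83 CPM (SD, n = 6) in control mice and 50.9 ± 4.17 CPM (SD, n = 6) in BIBB-515 mice, which edgeR fitted as a log2 fold change of 0.46 ± 0.11 (SE) at an FDR of 0.0128. The Psmb5 values are uncertain as levels, since 54.1% of the 50-base words in its transcript are also found in other transcripts, mainly of Gm3375. Its exons also overlap those of Mir686 by 109 bases, and its counts were 70.5% of those in the tables of primary alignments, which include reads on several genes. In those tables, as in every other alternative, Psmb5 stayed past the threshold.

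Psma7, an alpha ring subunit on chromosome 2 from 180036367 to 180042464, had 78.2, 92.3 and 106.3 CPM as lowest, median and highest in control mice and 106.5, 109.5 and 121.5 CPM in BIBB-515 mice. Again control 4 was the highest control mouse and the groups met without overlapping. Psma7 rose by 23.2% (log2 fold change 0.30 ± 0.074 SE, edgeR FDR 0.0156). Psmb4, a beta ring subunit without catalytic activity on chromosome 3 from 94884324 to 94886958, had 120.5, 139.6 and 164.3 CPM in control mice and 159.8, 165.1 and 185.9 CPM in BIBB-515 mice. Here control 4 lay inside the BIBB-515 range, and 4 of the 6 BIBB-515 mice were above every control mouse. The log2 fold change of Psmb4 was 0.26 ± 0.082 SE (edgeR FDR 0.0455), and it passed in 9 of 22 alternatives, so the call is close to the threshold.

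The remaining standard core subunits did not pass. Among the alpha ring genes, which form the outer rings, the log2 fold changes ran from 0.050 for Psma4 to 0.21 for Psma1 (FDR 0.0756). Among the beta ring genes, Psmb1 had 0.22 (FDR 0.064), Psmb2 0.15 (FDR 0.162) and Psmb3 0.069 (FDR 0.682). Psma8, the alpha subunit of testis, was near the detection filter in liver (7 to 35 reads per library). Psmb11, the beta subunit of the thymus, had 0 reads in all 12 libraries. Leaving out 1 mouse changed the number of core genes called from 3 to 5 without control 3 and to 6 without control 4, and each of the other 10 fits gave 2, Psma7 and Psmb5.

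**Figure D3:**
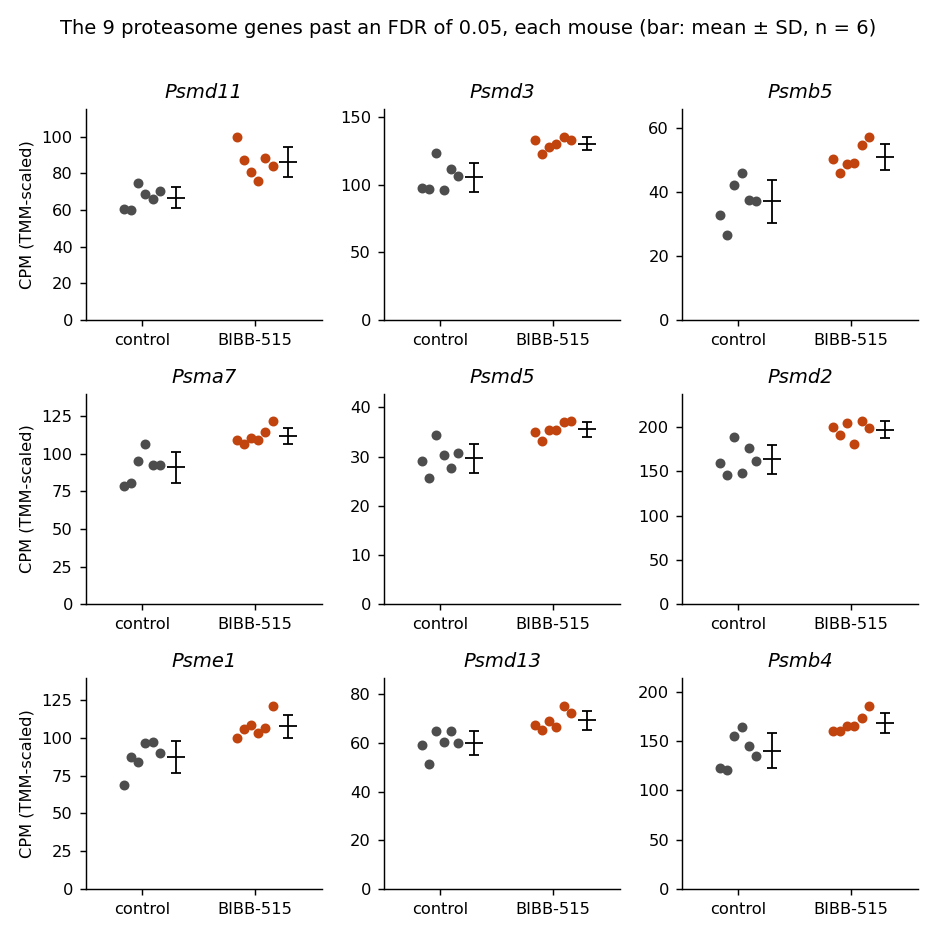
TMM-scaled CPM in each mouse for the 9 proteasome genes past an FDR of 0.05, ordered by p, with the mean ± SD of 6 mice beside the points and each vertical axis starting at 0. The groups do not overlap for Psmd11, Psmb5, Psma7, Psme1 and Psmd13, and 1 control mouse lies within the BIBB-515 range for the other 4 genes.

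The other catalytic subunits had smaller differences than Psmb5 and did not pass. Psmb6, which cuts after acidic residues, had 88.9, 106.9 and 127.5 CPM in control mice and 111.9, 121.5 and 129.3 CPM in BIBB-515 mice as lowest, median and highest. Only 1 BIBB-515 mouse was above every control mouse, and the log2 fold change was 0.19 ± 0.086 SE (edgeR FDR 0.15). Psmb7, which carries the trypsin-like activity, had 91.6, 119.8 and 134.5 CPM in control mice and 121.4, 126.7 and 142.4 CPM in BIBB-515 mice. Again 1 BIBB-515 mouse was above every control mouse, and the log2 fold change was 0.18 ± 0.091 SE (edgeR FDR 0.19). In both genes control 2 was lowest and control 4 highest of the control mice.

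The immune subunits overlapped widely between diets, and 0 of 3 passed. Psmb8, which takes the place of Psmb5, had 28.3, 37.6 and 43.6 CPM in control mice and 33.0, 35.6 and 42.1 CPM in BIBB-515 mice. Psmb9, which takes that of Psmb6, had 13.3, 19.8 and 22.9 CPM against 16.9, 19.2 and 25.3 CPM. Psmb10, which takes that of Psmb7, had 35.6, 38.0 and 45.7 CPM against 38.2, 42.9 and 52.8 CPM. BIBB-515 8 was the highest BIBB-515 mouse for each, and control 3 the lowest control mouse for Psmb8 and Psmb9. The log2 fold changes were -0.0055 for Psmb8 (FDR 0.979), 0.064 for Psmb9 (FDR 0.786) and 0.17 for Psmb10 (FDR 0.206), and the sign for Psmb8 and Psmb9 changed between alternatives, Psmb8 also without scaling factors.

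Within a mouse, the ratio of each immune subunit to its standard counterpart was taken from CPM per kilobase of exon and compared on the log2 scale by exact permutation of the diet labels, two-sided (smallest possible p 0.00216). The log2 ratio of Psmb8 to Psmb5 was -0.50 ± 0.38 (SD, n = 6) with the control diet and -0.97 ± 0.15 (SD, n = 6) with BIBB-515. This is a linear ratio of 0.709 against 0.511, which is uncertain as a level because that of Psmb5 is. All 6 BIBB-515 mice were below the control mean. The difference of -0.47 had an exact permutation p of 0.0173, which became 0.0519 when adjusted over the 3 ratios, so it missed 0.05 after adjustment. Psmb8 itself was nearly level. With 1 mouse left out, the difference ran from -0.59 to -0.36, and it passed 0.05 after adjustment in 1 of 12 such fits, without control 3 (exact permutation p 0.00433, adjusted 0.013). In the tables of primary alignments the difference was -0.48 (exact permutation p 0.0238). The ratio of Psmb9 to Psmb6 differed by -0.13 (exact permutation p 0.554, adjusted 0.829) and that of Psmb10 to Psmb7 by -0.030 (exact permutation p 0.829, adjusted 0.829), less than the spread between mice. In linear terms, Psmb9 to Psmb6 was 0.2311 with the control diet and 0.2118 with BIBB-515. Psmb10 to Psmb7 was 0.2625 and 0.257. With 1 mouse left out, the difference for Psmb9 to Psmb6 moved to -0.029 without control 1, -0.037 without control 2 and -0.26 without control 3.

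**Figure D4:**
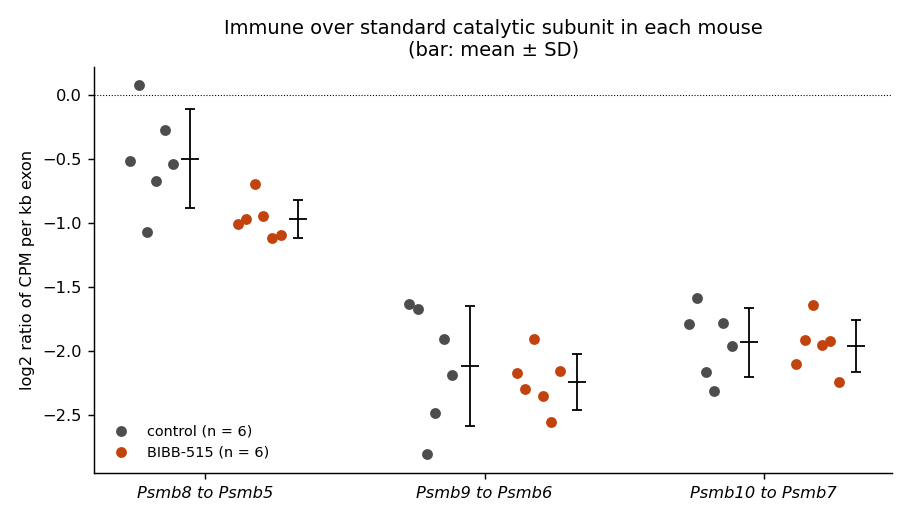
Log2 ratio of CPM per kilobase of exon for each immune subunit over its standard counterpart, 1 point per mouse, with the mean ± SD of 6 mice per diet. For Psmb8 to Psmb5 the BIBB-515 mice lie from -1.11 to -0.69 and the control mice from -1.07 to 0.078, and the other 2 ratios overlap throughout.

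Levels of leukocyte and interferon-responsive genes, which often accompany immune subunits, are given beside them. The summed leukocyte markers were 19.8 to 26.4 CPM in control mice and 16.2 to 26.8 CPM in BIBB-515 mice, and 0 of 7 tested markers passed, with Cd3e, Cd8a and Ms4a1 under the filter. Kupffer cell markers summed to 324.6 to 530.0 CPM in control mice and 338.6 to 569.9 CPM in BIBB-515 mice, with 0 of 6 called. Of the 5 markers each of bile duct, sinusoidal endothelium and stellate cells, 0, 0 and 2 were called. The latter were Lrat and Dcn, which were lower, and the 5 fat markers were under the filter. Over all tested genes, 13.7% were called in either direction and 6.48% lower. Of 11 interferon-responsive genes 0 passed, against 13.7% of all tested genes, and their median log2 fold change was -0.13. Of the 11, 8 were below 0 and 3 above, against 47.1% of all tested genes above 0, with a range from -0.51 to 0.094. At an unadjusted p under 0.05, 2 of the 11 were lower and 0 higher, against 15.5% and 14.3% of all tested genes. Tap1, which carries peptides into the endoplasmic reticulum, had 0.15 (FDR 0.578). Their part in the immune subunit values was not tested.

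In the regulatory particle, 4 of 17 genes were called higher (23.5%, against 7.18% of all tested genes) and none lower. The median log2 fold change was 0.19. At an unadjusted p under 0.05, 10 genes were higher, against 14.3% of all tested genes. The 4 were lid and base subunits. Psmd11, a scaffold of the lid on chromosome 11 from 80428615 to 80472133, had the lowest p of all proteasome genes. Its values were 60.1, 67.4 and 74.6 CPM in control mice and 76.0, 85.8 and 100.1 CPM in BIBB-515 mice, so the groups did not overlap, with control 3 highest and BIBB-515 9 lowest of their groups. The mean was 66.8 ± 5.65 CPM (SD, n = 6) in control mice and 86.2 ± 8.20 CPM (SD, n = 6) in BIBB-515 mice, with a fitted log2 fold change of 0.37 ± 0.075 (SE) and an edgeR FDR of 0.00534.

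Psmd3, another lid subunit, on chromosome 11 from 98682554 to 98695978, had 96.2, 102.1 and 123.1 CPM in control mice and 122.4, 131.4 and 135.4 CPM in BIBB-515 mice. Only control 3 reached the BIBB-515 range, and the gene rose by 23.7% (log2 fold change 0.31 ± 0.068 SE, edgeR FDR 0.00889). Psmd2, the base subunit that docks ubiquitin-like domains, on chromosome 16 from 20651652 to 20663414, had 145.3, 160.2 and 188.3 CPM against 180.6, 199.1 and 206.3 CPM. Control 3 was again within the BIBB-515 range, and the log2 fold change was 0.27 ± 0.071 SE (edgeR FDR 0.0223). Of the 50-base words of Psmd2, 17.8% occur in other transcripts. Psmd13, a lid subunit on chromosome 7 from 140882394 to 140898642, had 51.4, 60.1 and 64.8 CPM against 65.2, 68.3 and 75.4 CPM. Its groups did not overlap by a narrow margin, and it passed in 11 of 22 alternatives at a log2 fold change of 0.21 ± 0.065 SE (edgeR FDR 0.0447).

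None of the 6 ATPase genes passed, although 3 were higher at an unadjusted p under 0.05, against 14.3% of all tested genes. Psmc1, Psmc3 and Psmc4 had log2 fold changes of 0.22, 0.19 and 0.23 (FDR 0.0569, 0.0889 and 0.0678). Psmc2, Psmc5 and Psmc6 had 0.0046, 0.036 and -0.043, and the standard errors of the 6 were 0.069 to 0.084. Whether the ATPases of the ring differed from each other was not tested. Of the base subunits other than ATPases, Psmd1 and the ubiquitin receptor Psmd4 had 0.22 and 0.25 (FDR 0.0948 and 0.0797). Of the lid genes, Psmd14, the enzyme that removes ubiquitin chains, had 0.099 (FDR 0.583), and its partner Psmd7 had 0.042 (FDR 0.735). With 1 mouse left out, Psmd11 and Psmd3 passed in all 12 fits, Psmd2 in 10 and Psmd13 in only 3. The number of calls was lowest at 2 without BIBB-515 8 or BIBB-515 10, where Psmd2 and Psmd13 were lost. It was highest at 7 without control 3.

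Of the assembly chaperones, activators and the inhibitor, 2 of 12 tested genes rose (16.7%, against 7.18% of all tested genes). All 12 were above 0, against 47.1% of all tested genes, with a median of 0.12. Psmd5, a chaperone that holds ATPases during assembly of the base, on chromosome 2 from 34852089 to 34870962, had 25.7, 29.7 and 34.5 CPM in control mice and 33.2, 35.5 and 37.2 CPM in BIBB-515 mice. Control 3 was the only control mouse within the BIBB-515 range, and the gene rose by 19.9% (log2 fold change 0.26 ± 0.068 SE, edgeR FDR 0.0201). Psme1, a subunit of the interferon-inducible activator that opens the core gate, on chromosome 14 from 55578494 to 55581527, had 68.8, 88.9 and 97.4 CPM against 100.2, 106.3 and 121.6 CPM. The groups did not overlap, and the log2 fold change was 0.30 ± 0.082 SE (edgeR FDR 0.0246). The call for Psme1 was lost without BIBB-515 11 (FDR 0.0588), which left 1 call in this group.

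Psme2, the partner of Psme1 in the same activator ring, had a log2 fold change of 0.12 (FDR 0.292), and 28.3% of its words occur in other transcripts, mainly of Psme2b. The core chaperones Psmg2 and Psmg3 had 0.24 and 0.23 (FDR 0.0989 and 0.139), Psmg4 had 0.17 (FDR 0.254) and Psmg1 0.033 (FDR 0.777). The nuclear activator Psme3 and the large activator Psme4 had 0.078 and 0.029, and the inhibitor Psmf1 had 0.078 (FDR 0.359, 0.848 and 0.495). Psme2b did not pass the filter, with 13 to 27 reads per library. Psmc3ip, matched by its symbol only, encodes a partner of Psmc3 that acts in meiotic recombination. It had 0.28 to 0.57 CPM over all 12 mice and was not tested, and its count was 15.2% of that in the tables of primary alignments, where reads on the overlapping exons of Mlx are included.

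Proteasome genes varied together from mouse to mouse within a diet. After each gene's diet mean was subtracted, the median Pearson r over the 12 mice was 0.907 among the 91 pairs of standard core genes, with a range of 0.619 to 0.977. It was 0.66 among the 136 pairs of regulatory particle genes and 0.666 for the 238 pairs between these particles, against -0.001 over all pairs of tested genes. Pairs of an immune with a standard core gene had a median r of -0.156. These are descriptions over 12 libraries, which share depth, scaling and the trend on exonic length. The mean log2 CPM of the 14 standard core genes ran from 6.09 in control 2 to 6.57 in control 4 among control mice and from 6.44 to 6.67 among BIBB-515 mice. For the 17 regulatory particle genes the ranges were 6.13 to 6.50 and 6.44 to 6.60, so the control mice were more spread in both particles and overlapped the BIBB-515 mice through control 3 and control 4.

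**Figure D5:**
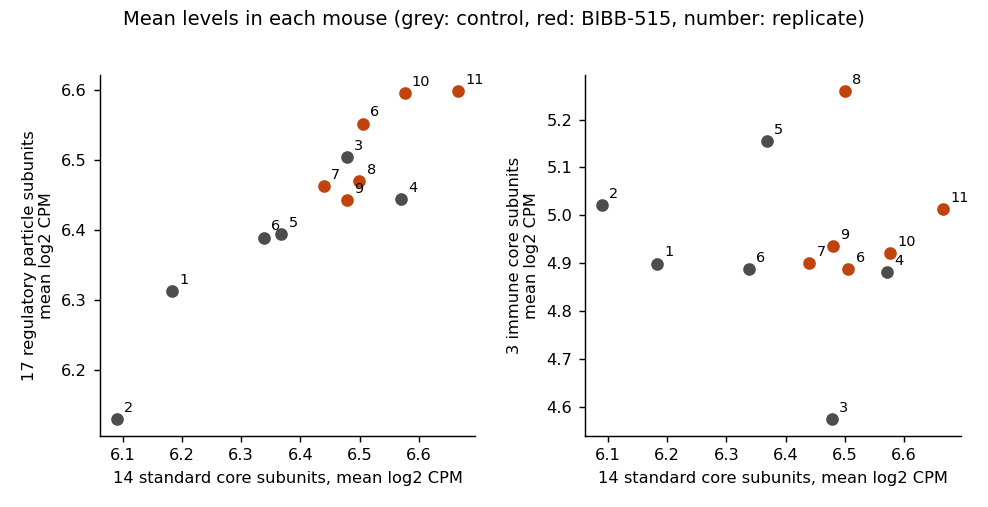
Mean log2 CPM of the 14 standard core genes on the horizontal axis of both panels, against the mean of the 17 regulatory particle genes (left) and of the 3 immune core genes (right), 1 point per mouse with its replicate number. On the left the mice lie along a line from control 2 to BIBB-515 11, and on the right control 3 is lowest at 4.57 and BIBB-515 8 highest at 5.26.

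Levels between subunits were compared only per length, as control means in CPM per kilobase of exon. Standard core genes ran from 40.5 (Psma5) to 147.8 (Psmb4) with a median of 80.0, a span of 3.65-fold for subunits that enter the particle in equal numbers. Psma5 shares 49.1% of its words with other transcripts, and Psmb5, the lowest beta ring gene at 42.5, shares 54.1%. The exons of Psma5 overlap no other gene, and its count was 99.99% of that over primary alignments. Whether this share reflects reads lost to shared words was not tested. Regulatory particle genes ran from 26.8 (Psmd14) to 78.3 (Psmd4) with a median of 45.9, and the 6 ATPases lay within 44.5 to 67.6. The immune subunits had 24.0 to 30.7, below each standard core gene. The core chaperones had 10.7 to 18.1 and those of the regulatory particle a median of 14.5.

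A list of 57 genes outside the symbol rule was read, of which 55 were tested. Besides genes of proteasome function, it holds 9 genes of MHC class I peptide loading and 11 interferon-responsive genes. None of these 9 or 11 was called, against 13.7% of all tested genes, and their median log2 fold changes were -0.023 and -0.13. Of the 55 tested genes, 7 were called higher (12.7%, against 7.18% of all tested genes) and none lower, with a median of 0.020. Vcp, an ATPase that pulls ubiquitinated proteins from membranes and complexes, had 190.4, 227.1 and 276.3 CPM as lowest, median and highest in control mice and 262.7, 277.1 and 284.7 CPM in BIBB-515 mice. These ranges overlapped, and its log2 fold change was 0.28 (edgeR FDR 0.032). On the same scale, its cofactor Nsfl1c had 0.25 (FDR 0.0226) and Ngly1, which strips sugar chains from proteins sent to the proteasome, 0.17 (FDR 0.0368). The shuttle Ubqln2 had 0.26 (FDR 0.0162) and the small Maf protein Mafg, a partner of CNC-bZIP factors, 0.27 (FDR 0.0129). Adrm1, a ubiquitin receptor of the regulatory particle, had 0.26 (FDR 0.0461). Of the 22 alternatives, Adrm1 passed in 11, Ngly1 in 12, Vcp in 16, Nsfl1c in 19, and Ubqln2 and Mafg in all. Leaving out 1 mouse gave from 3 calls, without control 1, BIBB-515 10 or BIBB-515 11, to 11 without control 3, of which 4 were lower, and 4 calls without BIBB-515 6 or BIBB-515 7.

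Other genes of the list that bear on the proteasome did not pass. The small lid subunit Sem1 (Shfm1 in the tables) had -0.063 (FDR 0.598), and the core maturation factor Pomp had 0.18 (FDR 0.163). The deubiquitinases bound to the particle, Usp14 and Uchl5, had 0.031 and -0.031 (FDR 0.817 and 0.826), the latter turning to 0.023 without scaling factors. Nfe2l1 had 105.4, 142.9 and 169.5 CPM in control mice and 150.6, 162.3 and 186.5 CPM in BIBB-515 mice. These ranges overlapped, and the log2 fold change was 0.23 ± 0.11 SE (edgeR FDR 0.186). Nfe2l1 passed in 1 of 22 alternatives, the fit with 1 surrogate variable (FDR 0.0435). Nfe2l2 had -0.031 (FDR 0.874), or 0.019 without scaling factors.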

How the data were processed

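Liver RNA of 12 mice was profiled by RNA-seq, 6 per diet. The submitters' processing notes name STAR 2.5.3a, featureCounts of Subread 1.6.3 and the build mm10, and library preparation is not given in the sources used here. The authors deposited whole-number counts of reads per gene over exons, without strand and without multi-mapping reads or reads on several genes. A second deposited table per mouse counts primary alignments, with overlapping genes each counted, and served as an alternative. Tables per exon and transcript were not used. A gene was kept when 2 or more of the 12 samples reached 1 CPM, which left 12481 of 24062. After TMM normalization, edgeR 4.0.16 (R 4.3.3) compared the diets by its quasi-likelihood test, diet as the only term. The procedure was run on simulated counts in which genes varied independently and without a trend on exonic length, unlike the data here. The Benjamini-Hochberg method adjusted p over the 12481 genes. The labels give no batch or cage, and p-values measure the spread between mice, each taken as independent. Depth was 22764819 to 31058370 counts per mouse. Shared 50-base words came from GENCODE M21 transcripts.

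Genes named are those past an FDR of 0.05 (up to 12 by p), the catalytic and immune core subunits, Psmc3ip, members under the filter, and fixed or called genes of the pathway list. The other members are given by fold change. Of the pathway list, 2 genes under this rule are not reported here but stay in every count. The members and lists were chosen with earlier results of these data known. Alternatives were DESeq2 1.42.0, RLE and upper-quartile factors, limma-voom (limma 3.58.1), no filter, 1 CPM in 6 samples, primary alignments, 1 surrogate variable (sva 3.50.0) and each mouse left out. No scaling factors and removal of each library's trend on exonic length were added after seeing the data.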

Additional observations from a re-analysis of the deposited data

Results flagged for a closer look

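Of 100 groups of 6 mice examined, 1 diet and 1 proteasome gene each, 6 had a mouse whose gap to the nearest other mouse divided by the whole range exceeded the Dixon limit, and chance gives about 5. Among BIBB-515 mice, BIBB-515 11 was highest for Psma6 (121.1 CPM against 107.9 in the next mouse, a gap of 0.673 of the range) and for Psmb2 (82.7 against 74.6 CPM, 0.721). BIBB-515 8 was lowest for Psmf1 (39.9 against 44.3 CPM, 0.654). Among control mice, control 2 was lowest for Psmc2 (61.5 against 78.7 CPM, 0.659), control 3 highest for Psmd8 (121.0 against 111.8 CPM, 0.645) and control 1 highest for Psme3 (55.1 against 48.8 CPM, 0.632). None of these 6 genes is among the 9 past the FDR threshold.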

How the results depend on the processing

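In 22 alternatives to the edgeR fit, none of the 47 tested genes of the symbol rule was called lower. Psma7, Psmb5, Psmd3, Psmd5 and Psmd11 passed in all 22, Psme1 in 21 (not without BIBB-515 11), Psmd2 in 20 (not without BIBB-515 8 or 10), Psmd13 in 11 and Psmb4 in 9. The core gave 5 calls with 1 surrogate variable and 5 without scaling factors, the regulatory particle 7 with DESeq2, 7 with 1 surrogate variable and 10 without scaling factors, and the pathway list 14 (11 higher, 3 lower) with 1 surrogate variable and 12 without scaling factors. Over all genes, 1 surrogate variable gave 2407 calls, DESeq2 2244 and the edgeR fit 1705. With 1 mouse left out, calls ran from 2 to 6 in the core, 2 to 7 in the regulatory particle, 1 to 3 in the assembly group and 3 to 11 in the pathway list. The cause of these changes was not tested. Over the same 12 fits, the log2 ratio difference ran from -0.11 to 0.038 for Psmb10 to Psmb7 and changed sign, from -0.26 to -0.029 for Psmb9 to Psmb6 and from -0.59 to -0.36 for Psmb8 to Psmb5.

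Single genes near 0 changed sign. Psmb8 gave 0.0056 with limma-voom, 0.0042 without a filter, 0.050 without scaling factors and 0.0017 with primary alignments, and -0.061 to 0.056 with 1 mouse left out. Psmb9 gave -0.015 with the length trend removed, and -0.015 to 0.12 with 1 mouse left out. With 1 mouse left out, Nfe2l2 ran from -0.069 to 0.071 and Uchl5 from -0.063 to 0.0074. Without scaling factors Nfe2l2 gave 0.019 and Uchl5 0.023. Shfm1 was called lower only with the length trend removed (-0.16, FDR 0.0442).

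No paired analysis was made, because the diet groups were separate mice and the labels name no pairs. At this depth and spread between 6 mice per diet, the smallest difference called among proteasome genes was 15.5% (Psmd13). This is not a limit of detection, since some larger differences were not called, such as 18.8% for Psmd4 (edgeR FDR 0.0797).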
